A study of Rattus norvegicus with 2 samples.

Results

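The genes that encode the proteins of the cytosolic ribosome were examined in cultured newborn rat epidermal keratinocytes, which form the stratified covering of the skin. They were taken by symbol from the platform's gene names: Rpl or Rps followed by a number, without the Rps6k kinases, together with Rpsa, Rplp0, Rplp1 and Rplp2. This gave 77 of 15037 named genes, 48 of the large and 29 of the small subunit, each with 1 probe set. The control group had 1 array of cells that the labels call non-treated, and the siTet2/3 group had 1 array of cells that received siRNAs targeting Tet2 and Tet3, 1 µM of each. Both cultures grew in medium with 10% fetal bovine serum and 0.4 µg/mL hydrocortisone, and both received vitamin C for 12 h, beginning 24 h after transfection. The control sample is titled NC+VC, and its labels give the same timing after transfection. Whether the control received another siRNA or the transfection reagent is not stated in the labels. No array without vitamin C was used here. With 1 array per group there is no replicate spread and no test, so "higher" and "lower" describe these 2 arrays only, whose number sets the limit on precision.

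Each cytosolic ribosome is built from a small subunit, which reads the mRNA, and a large subunit, which joins amino acids and holds the exit tunnel for the new protein. Ribosomal protein mRNAs begin with a run of pyrimidines, the 5′ terminal oligopyrimidine (TOP) tract, through which mTOR signalling and the binding protein Larp1 set their translation. TET enzymes oxidise methylated cytosine in DNA and use vitamin C as a cofactor. In the skin, mouse mutants with changed Rps19 or Rps20 have dark skin, which arises from p53 activity in keratinocytes.

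Start-site sequences show a feature that many of these genes, though not all, share apart from their symbols. RefSeq's promoter table (build GRCr8) matched 65 of the 77 genes by gene identifier, 60 of them above the background floor defined below. The stretches printed run from 30 bases before the annotated start base to 29 bases after it, 5′ to 3′. They come from the 3 genes with the largest decreases, from Rpl22 as the partner of Rpl22l1, and from 3 of the genes of equal value on both arrays. Capitals mark the longest run of C and T that overlaps the window from 5 bases before to 5 bases after the start base.
Rpl29, chr8:115947613-115947672, plus strand: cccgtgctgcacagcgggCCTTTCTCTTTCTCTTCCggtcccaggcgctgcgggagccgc
Rpl22l1, chr2:113683166-113683225, plus strand: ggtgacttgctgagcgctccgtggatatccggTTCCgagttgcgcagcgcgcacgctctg
Rpl18, chr1:105325240-105325299, plus strand: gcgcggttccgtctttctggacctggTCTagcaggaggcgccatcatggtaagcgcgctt
Rpl22, chr5:168117931-168117990, plus strand: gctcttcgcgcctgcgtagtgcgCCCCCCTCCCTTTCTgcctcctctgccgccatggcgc
Rpl31, chr9:49143081-49143140, plus strand: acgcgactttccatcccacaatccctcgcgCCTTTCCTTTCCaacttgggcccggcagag
Rpl4, chr8:73566447-73566506, plus strand: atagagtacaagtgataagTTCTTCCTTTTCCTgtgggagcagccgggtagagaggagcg
Rplp1, chr8:71290843-71290902, minus strand: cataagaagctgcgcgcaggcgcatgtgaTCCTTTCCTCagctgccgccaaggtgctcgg

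The run was 18 bases long in Rpl29, 15 in Rpl22, 14 in Rpl4, 12 in Rpl31 and 10 in Rplp1. It was only 4 in Rpl22l1, 3 in Rpl18 and 2 in Rpl21, a gene of equal value on both arrays that is not printed. Over the 60 genes its median length was 10.0 bases, against 3.0 over 27457 promoters of the table. A run of 8 or more was found in 38 of the 60 (63.3%) and in 9.01% of all promoters. Short pyrimidine motifs were searched on both strands with their first base, as read along the sense strand, in the same window. The motif CTTTC was found on the sense strand in 26.7% of the 60 genes and in 1.57% of all promoters. For the motif CTTCC the shares were 18.3% and 2.41%, and for the motif CTTTT they were 11.7% and 1.32%. On the antisense strand the same motifs, in the same order, were found in 1.67%, 0% and 0% of the 60 genes and in 1.65%, 3.08% and 1.26% of all promoters. At least 1 of the 3 stood on the sense strand in 29 of the 60 genes (48.3%) and in 5.20% of all promoters; 5 of the 29 held more than 1 of these overlapping motifs. TATAAA, searched over the whole 300 bases, was found on the sense strand in 8.33% of the 60 and 9.08% of all promoters. On the antisense strand the shares were 5.00% and 7.14%. Over 6588 promoters of named genes above the floor it was less frequent, at 4.39% on the sense and 2.84% on the antisense strand. A match is a description of letters near an annotated start and not of a site in use.

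**Figure D1:**
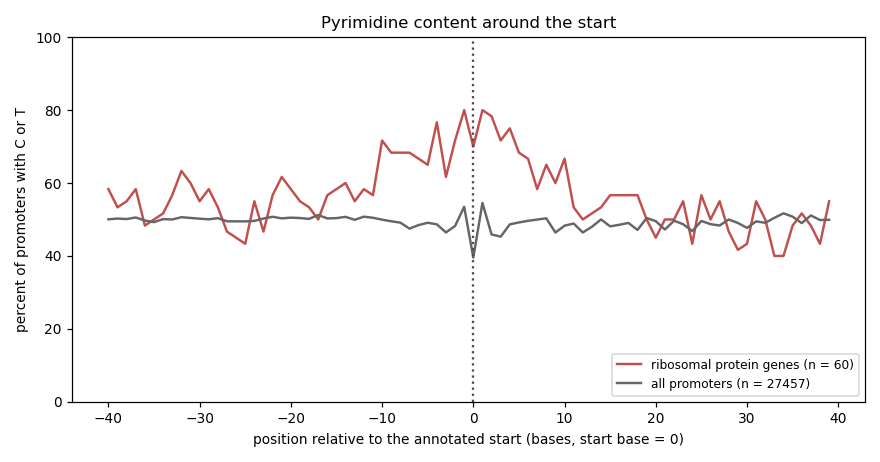
Percent of promoters with C or T at each position (y axis) against distance from the annotated start in bases (x axis), for 60 ribosomal protein genes above the floor and for 27457 promoters of the RefSeq table. Between 5 bases before and 5 bases after the start the ribosomal protein genes lay between 61.67% and 80.00%, and all promoters between 39.55% and 54.53%.

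Genes with and without a start-site motif had nearly the same median difference between the arrays. The 29 genes with a motif had a median difference (log2 signal, siTet2/3 minus control) of -0.15, with 21 below 0, and the 31 without had a median of -0.14, with 22 below 0.

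As a group, the ribosomal protein genes read slightly lower on the siTet2/3 array, and they differed less than other genes did. Of the 77 genes, 71 passed a background floor of 5.23 log2 units, set at the 95th percentile of the higher value over 182 chemoreceptor genes; the other 6 are near-copies of ribosomal protein genes, described below. Among the 71, 52 were lower on the siTet2/3 array, 14 were higher and 5 had equal values. The 52 make up 73.2%, against a background of 55.3% of the 7810 named genes above the floor and 55.2% of the 3645 in the same range of signal. The median difference was -0.15 log2 units, against -0.06 over all genes above the floor and -0.05 over those 3645. After centring on the median of all genes the counts were 44 lower and 27 higher (the 5 equal genes among them), and after removal of a trend on signal 46 and 25, against 50.0% and 49.7% lower of all genes. In these bulk samples, fewer cells of a type and less RNA per cell cannot be told apart.

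A total of 4 of the 71 genes were at least 1.5-fold lower and 0 were at least 1.5-fold higher. That is 5.63% lower, where the background was 13.1% lower and 8.26% higher over all genes above the floor, and 9.93% lower and 5.35% higher over the genes in the same range of signal. Among 712 genes from the lower quartile of the ribosomal protein signals upward, 6.04% were 1.5-fold lower and 2.81% higher, so the share of strongly lower ribosomal protein genes was near that background. Without genes of equal value on both arrays, 43 of 66 members (65.2%) differed by less than 1.2-fold, against 51.0% of the genes in the same range of signal and 61.1% of those from the lower quartile upward. The robust SD of the difference, also without equal values, was 0.19 log2 units over the members, 0.38 over the genes in the same range and 0.31 over those from the lower quartile upward.

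**Figure D2:**
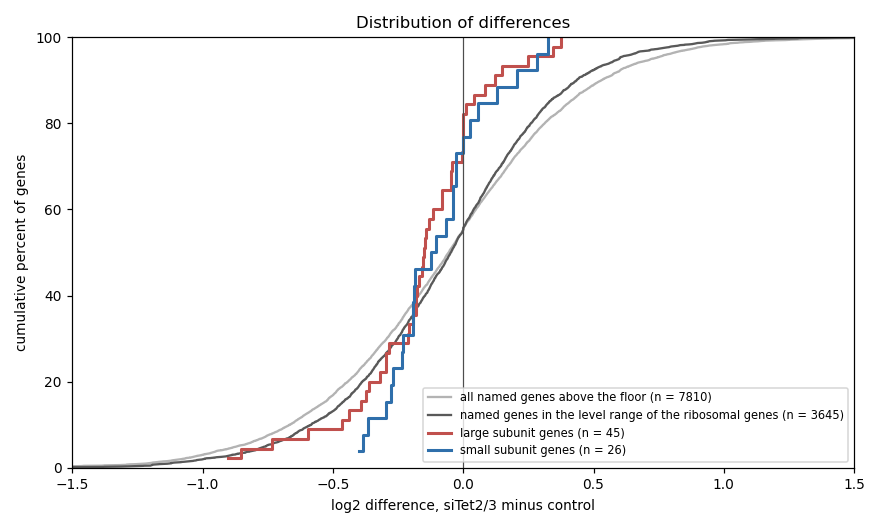
Cumulative percent of genes (y axis) against the log2 difference, siTet2/3 minus control (x axis), for 45 large subunit genes, 26 small subunit genes, 7810 named genes above the floor and the 3645 of them in the same range of signal. Both subunits rise steeply just left of 0, with medians of -0.15 and -0.11, and reach no further than 0.38 on the right.

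**Figure D3:**
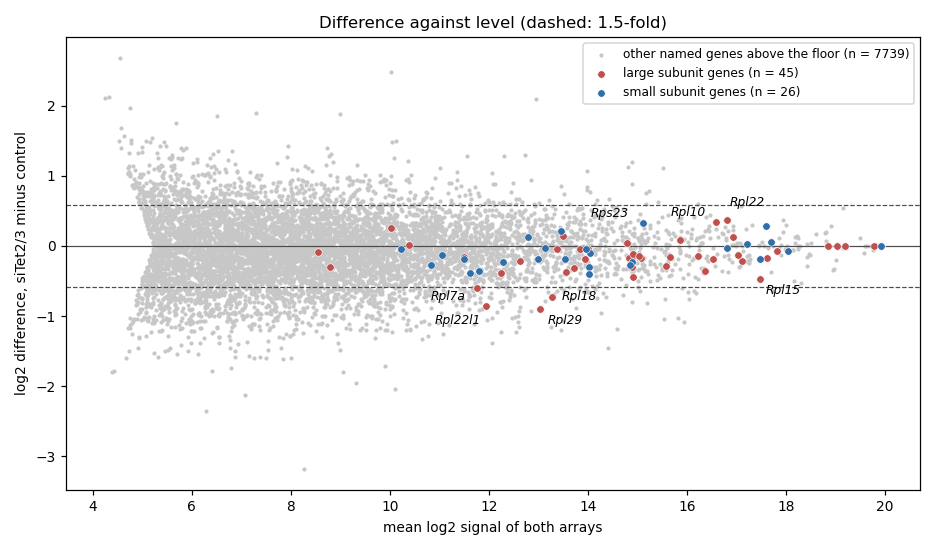
Log2 difference, siTet2/3 minus control (y axis), against mean log2 signal of both arrays (x axis); each point is 1 gene above the floor, and dashed lines mark 1.5-fold. Only Rpl29, Rpl22l1, Rpl18 and Rpl7a among the coloured points lie below the lower line, and the points narrow onto 0 at the right end.

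The 4 genes past the limit all encode large subunit proteins or a copy of one, as do 45 of the 71 genes above the floor. They make up 8.89% of those 45, below the 9.93% of genes in the same range of signal and the 13.1% of all genes. Rpl29, a protein of the outer surface of the large subunit that also binds heparin, had a log2 signal of 13.49 in the control and of 12.59 with siTet2/3, or 1.87-fold lower. Rpl22l1, the paralog of Rpl22, read 12.37 and 11.52, or 1.80-fold lower. Rpl18 read 13.65 and 12.91, or 1.66-fold lower. These 3 stayed past 1.5-fold after centring on the median of all genes and after removal of the trend. Rpl7a read 12.06 and 11.46, or 1.51-fold lower, and fell short of the limit under both of those scalings. The next gene inside the limit was Rpl15, at 1.38-fold lower. Measured against genes of the same signal, Rpl29 lay -2.73 local robust SDs from their median, Rpl18 -2.21 and Rpl22l1 -1.91, so none of the 71 reached 3 such SDs.

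In the other direction, Rpl22 and Rpl10 differed most. Rpl22, an RNA-binding protein of the large subunit needed for T cell development, read 16.62 in the control and 17.00 with siTet2/3, 1.30-fold higher. Rpl10, which sits near the peptidyl transferase centre and is among the last proteins added to the large subunit, read 16.43 and 16.77, 1.27-fold higher. Rps23, a protein of the decoding centre, was 1.25-fold higher (14.95 and 15.27) and Rps26, which contacts mRNA near the exit channel, 1.22-fold higher (17.46 and 17.75). Rpl27a was 1.19-fold higher, Rps12 1.15-fold, Rpl14 1.11-fold and Rpsa, also known as the laminin receptor, 1.10-fold (12.73 and 12.86). Both other scalings raised the difference of every member above the floor, so the sign of these 8 highest differences could not change.

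**Figure D4:**
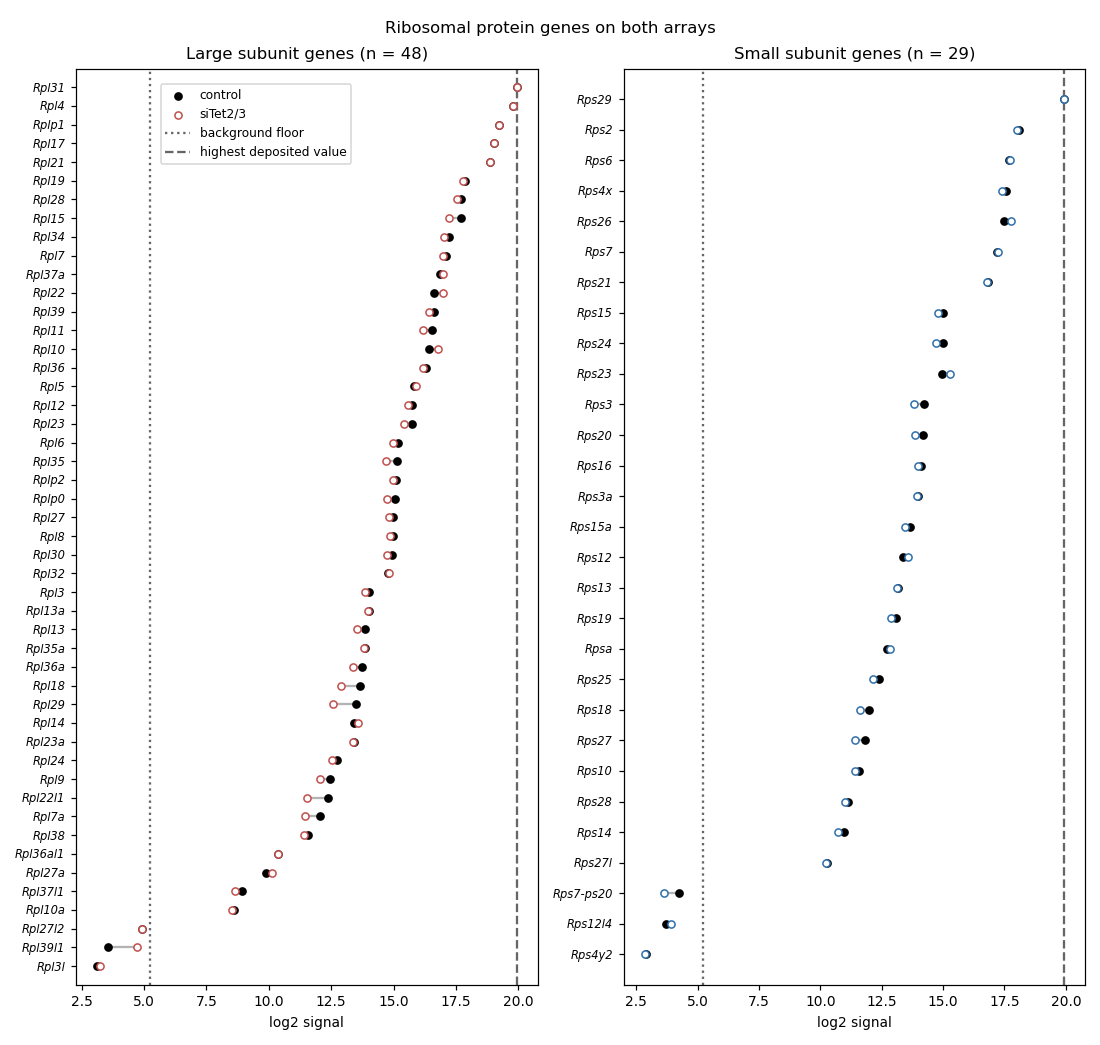
Log2 signal (x axis) of each of the 77 genes (y axis, ordered by the control value) on the control array (filled) and the siTet2/3 array (open), with the background floor and the highest deposited value as vertical lines. The 6 genes left of the floor are near-copies, and 5 genes at the upper end have coinciding points.

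Rpl22 and its paralog Rpl22l1 went opposite ways. The Rpl22 protein is known to bind the Rpl22l1 mRNA and to hold its level down, and the paralogs can replace each other in the ribosome. Protein was not measured, and the part of this binding in the values below was not tested. Here Rpl22 was the gene with the highest difference of the 71, 0.38, and Rpl22l1 had the second lowest, -0.85, so the difference of the paralog minus that of its parent was -1.23 log2 units. No other pair with both genes above the floor was as far apart. Rps27 read 11.81 and 11.42, a difference of -0.38, while its paralog Rps27l, a p53 target, read 10.25 and 10.21 (-0.04, and above 0 after centring or removal of the trend). Rpl36a differed by -0.37 and its copy Rpl36al1 by 0.01. Rpl37l1, which RefSeq lists under the older symbol Rpl37, differed by -0.30, from 8.93 on the control array.

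The remaining copies lay below the floor on both arrays, so no fold is given for them. Rpl3l, a form of Rpl3 known from heart and skeletal muscle, read 3.12 and 3.22, while Rpl3 read 14.04 and 13.86. Rpl39l1, a copy of the exit tunnel gene Rpl39, read 3.56 and 4.71. Rpl27l2 read 4.92 and 4.91, Rps12l4 3.72 and 3.91, Rps4y2 2.91 and 2.84, and the transcribed pseudogene Rps7-ps20 4.23 and 3.61. Ribosomal protein genes have many near-identical processed copies in mammalian genomes. Probe sequences were not used here, so a value can hold signal from a copy and is uncertain to that extent.

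Within the large subunit, 33 of 45 genes above the floor were lower, 8 were higher and 4 were equal, with a median of -0.15. The stalk recruits elongation factors to the ribosome. Its base Rplp0 read 15.04 and 14.75 (-0.30) and Rplp2 read 15.11 and 14.97 (-0.14), while Rplp1 read 19.21 on both arrays. Rpl12, at the foot of the stalk, differed by -0.15. The partners of the 5S RNP, which bind MDM2 when ribosome assembly stalls, did not move together: Rpl11 read 16.55 and 16.19 (-0.36) and Rpl5 read 15.82 and 15.91 (0.09).

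The exit tunnel and its rim, where new proteins meet their chaperones, included Rpl31 and Rpl4, at or near the end of the scale. Of 7 such genes 5 were lower and 2 equal, with a median of -0.04 (0.01 after centring). Rpl35, a rim protein, had the largest difference of them at -0.44 (15.13 and 14.69), followed by Rpl39 at -0.19 (16.62 and 16.43). Rpl19 differed by -0.08, Rpl23a by -0.04 and Rpl17 by -0.01, and the last 2 were above 0 after centring or removal of the trend. Rpl3 and Rpl8, which like Rpl10 lie near the peptidyl transferase centre, differed by -0.18 and -0.12. Among the other large subunit genes Rpl15 read 17.71 and 17.24 (-0.47), Rpl9 12.45 and 12.05 (-0.39), Rpl13 13.87 and 13.56 (-0.32) and Rpl23 15.72 and 15.44 (-0.29). Rpl38, which is needed for patterned translation of Hox mRNAs in the mouse embryo, differed by -0.16, and Rpl13a, which also acts outside the ribosome in silencing inflammatory mRNAs, by -0.05 (0.01 after centring).

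Within the small subunit, 19 of 26 genes above the floor were lower, 6 were higher and 1, Rps29, was equal, with a median of -0.11 and no gene past 1.5-fold. The median of the large subunit lay 0.04 log2 units below that of the small subunit, a gap far smaller than the spread within either (robust SDs of 0.22 and 0.18). Rps3, which lines the mRNA entry channel, was lowest, at 14.23 and 13.83 (-0.40). Rps18 read 11.99 and 11.62 (-0.37), Rps20 14.17 and 13.87 (-0.30), Rps24 14.99 and 14.71 (-0.28) and Rps14, the gene of the human 5q- syndrome, 10.97 and 10.70 (-0.27). Rps15, whose tail reaches the decoding centre, differed by -0.23 and Rps25, used in translation from internal ribosome entry sites, also by -0.23. Rps6, the substrate of the S6 kinases, read 17.67 and 17.72 (0.06), and Rps7 17.21 and 17.24 (0.03). Rps2 (-0.07), Rps16 (-0.11), Rps28 (-0.12), Rps10 (-0.19), Rps15a (-0.19) and Rps4x (-0.19) were slightly lower. Rps3a, Rps13 and Rps21 lay within 0.04 log2 units of 0 and changed sign with either other scaling.

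Genes grouped by what their loss or their protein is known for were mostly lower, as were 73.2% of all 71 genes. Of 21 genes with a probe set among 23 linked to Diamond-Blackfan anaemia, a failure of red cell production, 16 were lower (76.2%, and 14 after centring) and 3 higher, with a median of -0.19; only Rpl18 passed 1.5-fold. Of 12 genes whose proteins bind MDM2, 10 were lower (83.3%, and 9 after centring) and 2 higher, with a median of -0.28 and 0 past 1.5-fold. The pigment genes Rps19 (13.08 and 12.89), Rps20 and Rpl24 (12.73 and 12.52), the last of which is changed in the belly spot and tail mouse, differed by -0.19, -0.30 and -0.21. These lists overlap one another and are read against the median of -0.15 for all 71.

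Genes at the end of the scale had no measurable difference. The deposited values end at 19.93 log2 units, and Rpl31, a protein of the tunnel rim, and Rps29, a zinc-binding protein of the small subunit, stood there on both arrays, 2 of 7 named genes that did. Another 3 members had identical values below that end: Rpl4, which lines the exit tunnel, at 19.79, Rplp1 at 19.21 and Rpl21, a gene mutated in a hereditary hair loss, at 18.85. Identical values to the last deposited digit were found for 5 of 71 members and 0.384% of all genes above the floor. Of the 30 named genes with equal values, 16 lay above 18 log2 units, where they made up 30.2% of named genes (56.0% above 19). Another 2 lay between 16.26 and 17.55, and 12 were dim, between 5.38 and 9.99. Above 18, 5 of 7 ribosomal protein genes and 11 of 46 other named genes were equal. A difference of the 2 members at the end of the scale cannot be seen. Why the other 3 read equal below it was not tested, and 35 of the 46 other genes above 18 had unequal values. Without the 5 equal genes the median of the group was -0.16.

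Members were mostly lower in each tier of signal below 18 log2 units. Among 13 members with a mean signal of 8 to 12 log2 units, 11 were below 0 (84.6%, against 55.5% of other genes), with a median of -0.19. From 12 to 14 it was 14 of 17 (82.4% against 53.7%) with a median of -0.19, and from 14 to 16 it was 15 of 18 (83.3% against 55.2%) with a median of -0.17. From 16 to 18 it was 10 of 16 (62.5% against 47.5%) with a median of -0.11. Above 18, 5 of the 7 members are the genes of equal value; the other 2, Rps2 and Rpl17, were both below 0, as were 18 of 35 other genes of unequal value (51.4%). The members in a tier spread less than other genes did, with robust SDs of 0.17 to 0.22 against 0.27 to 0.42 in the 4 tiers below 18.

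The direction also moved with a property of the probe sets. Identifiers marked as unmapped belonged to 15 of the 77 members (19.5%) and to 1.29% of named probe sets. All 15 of these members were lower on the siTet2/3 array, with a median of -0.19 (13 of 15 after centring). Of 56 members above the floor with other identifiers, 37 were lower, with a median of -0.11. After centring, 31 of these 56 members were lower, with a median of -0.06, where 50.0% of all genes above the floor were lower. Of 56 other genes above the floor with unmapped identifiers, 31 were lower, with a median of -0.07. The part of the identifiers in the result was not tested.

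Ribosomal components whose symbols do not begin with Rpl or Rps differed little: Rack1, a scaffold on the small subunit, read 15.91 and 15.80, and Fau, which encodes a ubiquitin-like fusion with a small subunit protein, 12.82 and 12.83. Elongation factors had a median near that of the ribosomal proteins, at -0.13, with 0 genes past 1.5-fold. Of the 8, 5 were lower (62.5%, against 55.3% of all genes above the floor). Eif5a was furthest from 0, at 18.57 and 18.03. Eef1a1, which carries aminoacyl-tRNA to the ribosome, stood at the end of the scale on both arrays. Other mRNAs that begin with a TOP tract went the other way, with 8 of 12 higher and a median of 0.12. The 4 lower genes make up 33.3%, against 55.3% of all genes above the floor. Eif3e, Eif3f, Eif3h, Eif3l and Eif4b are also in the list of initiation factors, whose median was -0.14. Eif3l, a subunit of the initiation factor eIF3, was highest, with a difference of 0.37. None of the 12 passed 1.5-fold, against 13.1% lower and 8.26% higher of all genes. Whether the TOP list differs from the ribosomal proteins was not tested.

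Genes that build ribosomes differed about as much as genes in general. Of 101 ribosome biogenesis genes, 13 passed 1.5-fold downward (12.9%, against 13.1% of all genes above the floor) and 4 upward (3.96% against 8.26%), leaving 84 within it. Their median was -0.08 and their robust SD 0.42, against -0.06 and 0.45 over all genes. Rsl24d1, which acts in large subunit maturation, was 3.04-fold lower (8.06 and 6.46) and the helicase gene Ddx31 2.16-fold lower. Gnl3, which encodes nucleostemin, was 1.82-fold higher (8.74 and 9.60) and Heatr1, of the small subunit processome, 1.80-fold higher. Of 13 genes for RNA polymerase I and the transcription of ribosomal RNA, 8 were higher and 5 lower, with a median of 0.08. Polr1d alone passed 1.5-fold, at 1.66-fold higher (7.69% of the list, against 8.26% of all genes). Among 18 regulators of ribosomal protein synthesis and growth, 2 were past 1.5-fold, both lower (11.1%, against 13.1% of all genes): Maf1, a repressor of RNA polymerase III (1.64-fold), and Eif4ebp1, an mTOR target that blocks cap-dependent initiation (1.55-fold).

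Other lists, taken by symbol, had shares past 1.5-fold near or below those of all genes above the floor (13.1% lower and 8.26% higher). For 61 mitochondrial ribosomal protein genes the median was -0.08 and the robust SD 0.43, with 9 at least 1.5-fold lower (14.8%) and 2 higher (3.28%); Mrpl57 was 2.51-fold lower and Mrpl17 2.07-fold. For 45 genes with initiation factor symbols the median was -0.14 and the robust SD 0.35, with 5 lower (11.1%) and 1 higher (2.22%). Eif3d was 1.87-fold lower, and the lower genes also include Eif2ak4 and Eif4ebp1, which encode regulators of initiation. For 34 genes with proteasome symbols the median was -0.03 (0.03 after centring) and the robust SD 0.34, with 3 lower (8.82%) and 2 higher (5.88%). Psmc3ip, 1 of the 2 higher genes at 1.57-fold, has such a symbol but does not encode a proteasome subunit. The robust SD over all genes above the floor was 0.45. These lists lie at other signals than the ribosomal protein genes, and the difference between lists was not tested.

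**Figure D5:**
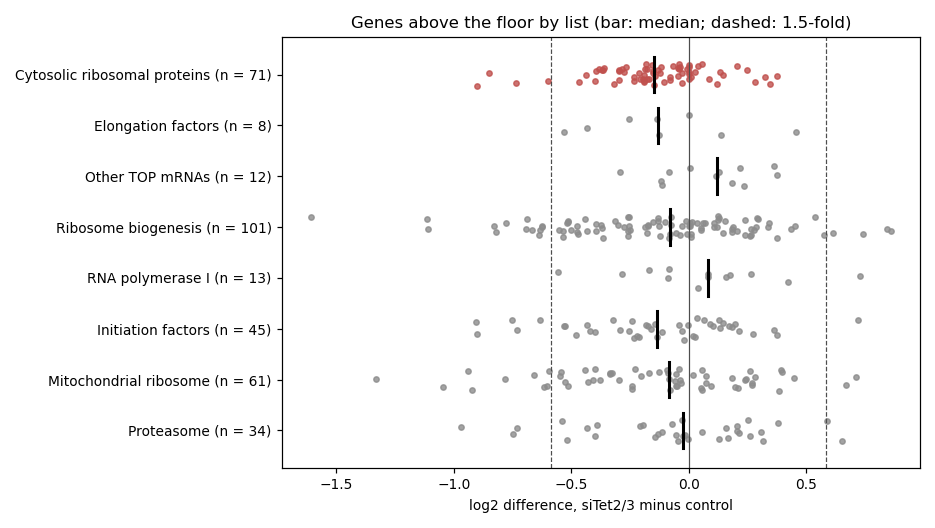
Log2 difference, siTet2/3 minus control (x axis), of each gene above the floor in 8 lists (y axis, with the number of genes); black bars are medians and dashed lines mark 1.5-fold. The 71 cytosolic ribosomal protein genes are packed between -0.90 and 0.38, while 101 ribosome biogenesis genes run from -1.61 to 0.86.

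The arrays carried the markers of their cell type. Of the keratinocyte markers, 6 had a named probe set and all 6 were above the floor, among them Krt14 (18.54 and 18.70) and Tp63 (13.15 and 12.75). The log2 of their summed signals was 18.73 in the control and 18.86 with siTet2/3, and 3 of the 6 were higher and 3 lower. Krt15, a keratin of basal cells, was the only one past 1.5-fold, at 8.78 and 11.26, and its part in the ribosomal protein differences was not tested. All 9 fibroblast markers were below the floor on both arrays. Of the melanocyte, immune and endothelial markers, 1 each was above it: Mitf (5.33 and 5.41), Cd68 (5.52 and 5.24) and Tek (9.66 and 9.25), while the defining markers Tyr, Ptprc and Pecam1 were below it. Tet2 and Tet3 had 0 named probe sets, so the knockdown itself was not analysed here.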

How the data were processed

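Per the labels' protocols, labelled cDNA was made from total RNA with a whole-transcript kit; each sample was read on 1 array. The authors deposited log2 signals per probe set; RMA and the Transcriptome Analysis Console are named in the submitters' processing notes, without versions or settings. The sorted columns differed by at most 0.151 log2 units, so differences are relative to the bulk of genes and total RNA per cell cannot be seen. The values end at 19.93; the transformation behind that scale, its build and its probe annotation were not stated. Of 24834 rows, 15049 probe sets had 1 gene symbol, for 15037 genes. All 77 ribosomal symbols matched RefSeq (GRCr8) by gene identifier.

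The difference per gene was siTet2/3 minus control, with the mean over probe sets for 10 genes with several. Genes counted had their higher value above the floor of 5.23. Local robust SDs came from 20 bins of equal size. The trend was removed with limma 3.58.1 loessFit (span 0.3) in R 4.3.3; other steps used Python 3.11.15 and pandas 2.3.3.

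The members, lists, floor and alternatives were chosen with earlier results of these data known. The genes named were those past 1.5-fold, the 8 highest and 8 lowest differences, those at the end of the scale, the stalk genes and Rpsa, copies with their parents, and genes below the floor. Members named for their role beside these, and the groups of the 5S RNP, the exit tunnel and the pigment genes, were chosen after their values were seen. Related lists are given by counts, with up to 2 genes past 1.5-fold in each direction or, where none passed, the gene furthest from 0; Fau and Eef1a1 were named after their values were seen.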

Additional observations from a re-analysis of the deposited data

How the results depend on the processing

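The count of 4 ribosomal protein genes at least 1.5-fold lower stayed between 3 and 5 under 11 of 13 alternatives. Several of the 11, named below, could not change it. It was 0 with a 2-fold limit or a limit of 3 local robust SDs. The count of 0 higher genes became 1, Rpl39l1, only with no floor, where both of its values lie in the background. The median difference of -0.15 stayed negative under all 12 alternatives and was -0.090 after centring on the median of all genes, which lay at -0.06. The gap of -0.04 between the subunit medians stayed negative under all 12; it was -0.025 without near-copies, -0.067 with means in place of medians and -0.091 without members of unmapped probe identifiers. The number of genes at the end of the scale was 2, and 3 within 0.5 log2 units of it. The alternatives added after seeing the data were floors from all 1206 chemoreceptor symbols (5.04) or from negative-control probes (8.31), and leaving out members of equal value or of unmapped identifiers. A value was taken as moved where it changed by over 1.5 times. The brightest probe per gene, a floor 1 log2 unit higher and the floors of 5.04 and 8.31 kept the same 71 genes with the same values. These alternatives could not change a count or a median, and centring could not change the gap between the subunit medians. Leaving out members within 0.5 log2 units of the end of the scale, or members of equal value, removed only genes of equal value. Neither step could change a count of genes past 1.5-fold. No paired analysis was possible because each group had 1 array. With 1 array per group, no precision can be given for any gene, and signal near the end of the scale limits what the brightest genes can show.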
